A study of Mus musculus with 24 samples.

Results

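The p53 effector genes *Aen*, *Zmat3*, *Trp53inp1*, *Ei24*, *Perp*, *Eda2r* and *Rps27l*, which have different cellular roles, were followed by RNA-Seq through mouse splenic cells exposed to ionizing radiation (IR). They were chosen by gene symbol, and all 7 were found among the 21671 genes listed for each of the 24 samples. The mice were of the C57/Bl6 strain and 8 weeks old, either wild-type (*Trp53+/+*) or lacking the p53 gene in every cell (*Trp53-/-*). Spleens were taken from unirradiated control animals (mock) or 4 h after whole-body IR at 7 Gy. B cells were enriched on magnetic beads against B220, a surface marker of B cells, and the cells that passed through the column formed the T cell-rich but mixed non-B cells. Each combination of cell type and treatment had 4 *Trp53+/+* and 2 *Trp53-/-* samples. The study's methods give the same numbers of mice for every group, so that the samples within a group were taken as separate animals. They do not say outright whether B and non-B samples came from the same mice. As the non-B cells were what passed the B cell column, shared spleens are possible. The main comparisons of the cell types did not pair the samples.

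The transcription factor p53 is stabilised by DNA damage and activates genes that halt the cell cycle, repair DNA or kill the cell. Lymphocytes of the spleen are among the cells that readily die by p53-dependent apoptosis after irradiation. The 7 genes act beyond the classic pair of cell-cycle arrest and mitochondrial death. *Aen* encodes a nuclear exonuclease that enhances apoptosis. *Ei24* encodes a membrane protein of the endoplasmic reticulum needed in autophagy, and *Trp53inp1* a stress protein that binds autophagy proteins of the LC3 and GABARAP families and promotes cell death. *Zmat3* encodes a zinc finger protein that binds RNA and controls mRNA stability and splicing. *Perp* encodes a membrane protein related to Pmp22 that is part of desmosomes and can promote apoptosis, *Eda2r* a receptor of the tumour necrosis factor receptor family for the ligand ectodysplasin A2, and *Rps27l* a ribosomal protein similar to Rps27 that binds Mdm2.

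Levels are RPKM, reads per kilobase of a gene relative to all exonic reads of the library, as deposited by the authors. The number of reads per sample is not part of the files analysed here. Estimated from the steps between low RPKM values, it ranged from 4.72 to 11.02 M, with a median of 8.745 M (megareads). *Trp53* RPKM in *Trp53-/-* controls was 21.6 and 21.7 in B and 23.97 and 25.04 in non-B cells, against 44.8 to 47.9 and 43.4 to 49.5 in *Trp53+/+* controls. After IR it was 40.5 and 41.8 in *Trp53-/-* against 58.7 to 65.8 in *Trp53+/+* B cells, and 34.6 and 36.4 against 35.0 to 38.6 in non-B cells. The genotypes thus did not overlap in 3 of the 4 settings, whereas in irradiated non-B cells the gene-level value did not separate them, and which exons the null allele lacks was not given in the sources used here. The summed RPKM of 8 B cell markers was 833 to 1124 in B and 205 to 574 in non-B cells, and that of 8 T cell markers 39.5 to 79.7 in B and 311 to 673 in non-B cells. The sum of 6 erythroid markers was 110 to 261 in *Trp53+/+* non-B controls and 22.03 to 67.4 after IR. In *Trp53+/+* B cells it was 44.1 to 112.1 in controls and 17.03 to 28.3 after IR. In each cell type 4 of the 6 were called lower, against 12.2% of all genes in B and 4.11% in non-B cells. Genes of olfactory and vomeronasal receptors, 1440 genes that are normally silent in blood cells, stood apart in 6 of the 8 irradiated *Trp53+/+* libraries, 3 of each cell type. Between 15.97% and 51.3% of these receptor genes were above 0 there, against 5.42% to 13.1% in the 16 samples of other groups. Results are therefore also given without these 6 libraries. The mark was 10% of receptor genes above 0 and was applied to irradiated *Trp53+/+* samples only. Irradiated *Trp53-/-* B cell replicate 2, at 13.1%, also exceeded it and was kept, so that the removal was one-sided between the genotypes. In such bulk RNA, fewer cells of a type and less RNA per cell cannot be told apart.

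The p53 protein binds as a tetramer to a sequence of 2 similar half-sites of 10 bases, each with a core of CNNG in which both bases N are A or T, and the windows around the 7 genes were read for the unsplit form of this p53 consensus, in which both half-sites adjoin. Windows ran from 5 kb before to 2 kb after the annotated start of the gene (GENCODE annotation of NCBIM37, the assembly of mm9, the build of the authors). The consensus is its own reverse complement, so that both strands are covered by reading one. The following matches are shown because they lie beside genes whose RNA levels are described next. Sequences are given 5′ to 3′ on the strand of the gene, with the cores of both half-sites in capitals.
Zmat3, intron, chr3:32263253-32263272, minus strand, 0 mismatches: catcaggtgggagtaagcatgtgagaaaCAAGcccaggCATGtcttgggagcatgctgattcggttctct
Zmat3, upstream and outside annotated genes, chr3:32269073-32269092, minus strand, 1 mismatch: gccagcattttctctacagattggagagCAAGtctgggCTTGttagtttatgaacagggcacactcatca
Rps27l, intron, chr9:66794103-66794122, plus strand, 1 mismatch: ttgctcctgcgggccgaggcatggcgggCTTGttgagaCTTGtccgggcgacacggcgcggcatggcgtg
Perp, upstream and outside annotated genes, chr10:18562840-18562859, plus strand, 2 mismatches: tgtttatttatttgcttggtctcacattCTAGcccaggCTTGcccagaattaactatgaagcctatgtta
Aen, exon, chr7:86040823-86040842, plus strand, 3 mismatches: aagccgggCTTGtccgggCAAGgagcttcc
The coordinates are those of the 20-base match, which begins at the third base before the first capital. Upstream and outside annotated genes here means only outside the span of the named gene, since other genes were not compared at these positions. The label thus does not show that a match lies between genes. The coding gene 4930429B21Rik on the plus strand lies 97 bases from *Zmat3*. Whether the upstream *Zmat3* match falls inside it was not examined. Mismatches were counted outside the cores, which had to be intact.

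The match without a mismatch, in *Zmat3*, begins 1328 bases after the annotated start of the gene. Of 18827 genes with a window, 31 (0.165%) held a match without mismatch and 181 (0.961%) one with at most 1, against 1 and 2 of the 7 genes. With at most 2 mismatches, 3 of the 7 and 4.37% of all genes had a match. At 3 mismatches the share of all genes rose to 17.3% and that of the 7 genes to 4, *Aen* being added with one match in the exon and one in an intron. No match of this kind lay in the windows of *Trp53inp1*, *Ei24* and *Eda2r*, which says only that these letters are not in these windows. A match is a description of sequence, and no binding data were analysed here.

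**Figure D1:**
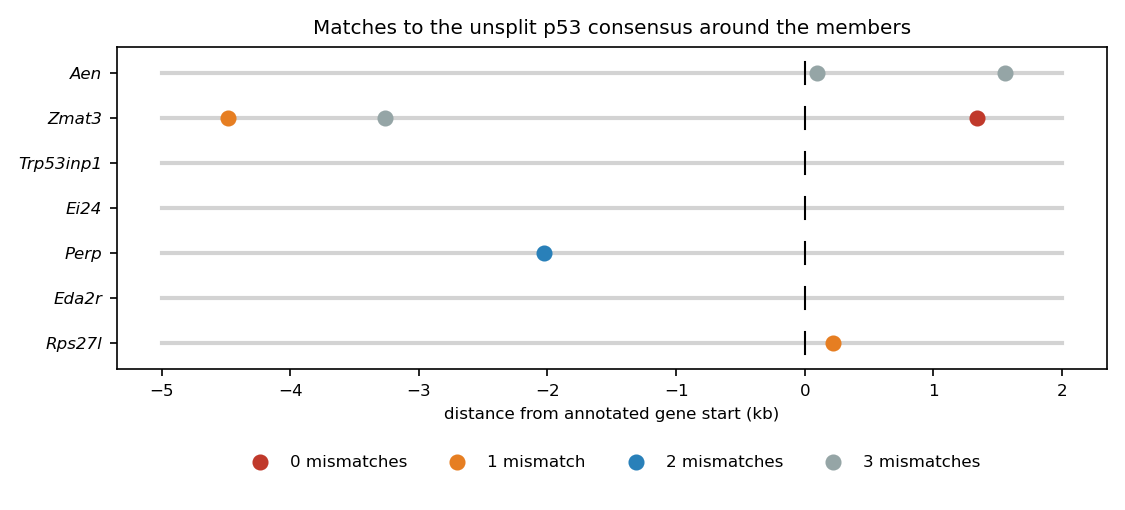
Positions of matches to the unsplit p53 consensus around the 7 genes, with the distance from the annotated gene start in kb on the x axis and 1 gene per line. Grey lines are the windows read, black ticks the gene starts, and points the centres of matches, coloured by the number of mismatches; *Zmat3* has 3 matches, *Aen* 2, *Rps27l* and *Perp* 1 each.

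*Aen* (chr7:86040740-86056095, plus strand) rose strongly after IR in *Trp53+/+* cells of both types, and was the only one of the 7 genes called higher after IR without p53. In *Trp53+/+* B cells its RPKM was 22.3, 21.0, 22.5 and 24.8 in controls and 112, 114, 118 and 119.9 after IR. In *Trp53+/+* non-B cells it was 23.5, 20.6, 23.8 and 26.6 in controls and 79.7, 78.6, 80.4 and 83.0 after IR. No irradiated sample overlapped a control, and the irradiated B cells lay above all irradiated non-B cells. In *Trp53-/-* B cells RPKM was 22.9 and 22.8 in controls and 53.7 and 49.0 after IR, and in *Trp53-/-* non-B cells 20.2 and 19.5 in controls and 35.8 and 31.6 after IR. The irradiated *Trp53-/-* samples of each type stood between the controls and the irradiated *Trp53+/+* samples. The log2 fold change in B cells was 2.33 (SE 0.058, limma, adjusted p = 4.43e-11) in *Trp53+/+* and 1.15 (SE 0.083, adjusted p = 1.63e-06) in *Trp53-/-*, a difference between genotypes of 1.19 (adjusted p = 7.87e-06). In non-B cells it was 1.75 (SE 0.078, adjusted p = 1.49e-07) and 0.75 (SE 0.11, adjusted p = 0.0262), a difference of 1.01 (adjusted p = 0.00181). The *Trp53-/-* non-B call was lost when any of the 4 *Trp53-/-* non-B samples was left out (adjusted p of 0.0766 and 0.235 without control replicates 1 and 2, 0.192 and 0.0546 without irradiated replicates 1 and 2), with log2 fold changes of 0.66 to 0.83.

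*Zmat3* (chr3:32233718-32264600, minus strand) had the largest fold change among the 7 genes in both cell types of *Trp53+/+* mice on the log2(RPKM + 0.5) scale used here, though not with a constant of 0.1, where *Eda2r* exceeded it. RPKM in *Trp53+/+* B cells was 5.53, 6.01, 5.52 and 6.51 in controls and 39.8, 37.2, 44.7 and 44.0 after IR. In *Trp53+/+* non-B cells it was 6.59, 7.13, 9.70 and 8.59 in controls and 28.4, 26.0, 32.6 and 32.2 after IR. Irradiated samples of each type lay well above their controls. In *Trp53-/-* mice RPKM was 3.11 and 2.42 in control and 1.89 and 2.34 in irradiated B cells, and 6.34 and 5.76 in control and 5.46 and 7.09 in irradiated non-B cells. *Trp53-/-* B cells thus lay below every *Trp53+/+* control whether irradiated or not, while those of non-B cells overlapped across treatments. The log2 fold change was 2.71 (SE 0.107, limma, adjusted p = 1.59e-09) in *Trp53+/+* B cells and 1.84 (SE 0.137, adjusted p = 6.47e-06) in *Trp53+/+* non-B cells. It was -0.32 (adjusted p = 0.116) and 0.04 (adjusted p = 0.956) in *Trp53-/-* cells, values that did not pass the test. The difference between genotypes was 3.03 (SE 0.185, adjusted p = 4.42e-07) in B and 1.80 (SE 0.237, adjusted p = 0.00166) in non-B cells.

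*Trp53inp1* (chr4:11083578-11101526, plus strand) was already the most abundant of the 7 genes in controls, rose about 2-fold in *Trp53+/+* B cells, and moved in the opposite direction in *Trp53-/-* B cells. RPKM in *Trp53+/+* B cells was 62.8, 63.1, 68.4 and 59.0 in controls and 120.4, 128, 140.2 and 128 after IR. In *Trp53-/-* B cells it was 62.8 and 65.5 in controls and 26.0 and 25.7 after IR. The controls of both genotypes coincided, and the irradiated samples lay on either side of them. Non-B cells had 57.1, 56.3, 62.8 and 51.7 in *Trp53+/+* controls, 92.2, 118, 109 and 100.7 after IR, 67.5 and 57.9 in *Trp53-/-* controls, and 56.5 and 71.5 after IR. There the *Trp53-/-* samples overlapped across treatments. The log2 fold change in B cells was 1.02 (SE 0.061, limma, adjusted p = 5.87e-08) in *Trp53+/+* and -1.30 (SE 0.087, adjusted p = 1.09e-06) in *Trp53-/-*, which gave a difference of 2.32 (SE 0.106, adjusted p = 4.18e-08). In non-B cells it was 0.87 (SE 0.102, adjusted p = 0.000227) in *Trp53+/+* and 0.02 (adjusted p = 0.969) in *Trp53-/-*, a difference of 0.85 (SE 0.177, adjusted p = 0.0182). That non-B difference was no longer significant without *Trp53-/-* control replicate 1 (0.74, adjusted p = 0.0738) or without irradiated *Trp53-/-* replicate 1 (0.68, adjusted p = 0.0945).

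*Ei24* (chr9:36586740-36604938, minus strand) rose about 4-fold in *Trp53+/+* B cells and did not pass the test in *Trp53-/-* cells of either type. RPKM in *Trp53+/+* B cells was 25.7, 21.6, 22.7 and 22.8 in controls and 104, 97.1, 93.2 and 86.9 after IR. In *Trp53+/+* non-B cells it was 25.002, 24.8, 22.8 and 23.2 in controls and 62.8, 71.1, 68.0 and 66.8 after IR. Irradiated and control samples were far apart in both, with B cells higher after IR. In *Trp53-/-* mice the values were 19.2 and 20.2 in control and 21.7 and 21.6 in irradiated B cells, and 21.2 and 23.9 in control and 21.4 and 16.3 in irradiated non-B cells. All 8 *Trp53-/-* samples lay below the lowest irradiated *Trp53+/+* sample. The log2 fold change in *Trp53+/+* cells was 2.02 (SE 0.068, limma, adjusted p = 3.8e-10) in B and 1.47 (SE 0.087, adjusted p = 8.52e-07) in non-B cells, against 0.13 (adjusted p = 0.318) and -0.27 (adjusted p = 0.324) in *Trp53-/-*. The difference between genotypes was 1.89 (adjusted p = 5.83e-07) in B and 1.73 (adjusted p = 0.00011) in non-B cells. An exon of *Ei24* overlaps the long noncoding RNA gene Gm16881 on the other strand, and reads of both cannot be told apart with a library kit that does not keep strand.

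*Perp* and *Eda2r*, whose products sit in the plasma membrane, were at the lower limit of detection in most groups. *Eda2r* (chrX:94529179-94572555, minus strand) was listed at 0 in all 8 *Trp53-/-* samples. In *Trp53+/+* B cells its RPKM was 0, 0.018, 0 and 0.035 in controls and 1.07, 1.66, 1.53 and 0.96 after IR. In *Trp53+/+* non-B cells it was 0.092, 0.13, 0.059 and 0.055 in controls and 0.94, 1.07, 0.93 and 1.48 after IR. This corresponds to roughly 0 to 2 reads per B cell control, 2.9 to 8.0 per non-B control and 38.4 to 89.0 per irradiated sample. Irradiated samples did not overlap controls, and the levels of both cell types overlapped after IR. The gene entered the tests only through its irradiated samples, which alone exceeded an RPKM of 1. The difference on the log2(RPKM + 0.5) scale was 1.80 (SE 0.185, limma, adjusted p = 6.3e-06) in *Trp53+/+* B cells and 1.45 (SE 0.157, adjusted p = 0.00013) in *Trp53+/+* non-B cells. With controls so close to 0 these values depend on the added constant, and with 0.1 and 1 in place of 0.5 they ran from 1.17 to 3.61 in B and from 0.95 to 2.71 in non-B cells. Since the *Trp53-/-* value of 0 was the same with and without IR, no fold change is given there, and the genotype difference equals the *Trp53+/+* response (adjusted p = 0.00256 in B and 0.0112 in non-B cells). In non-B cells this difference missed the threshold without *Trp53-/-* control replicate 2 (adjusted p = 0.0523) and without irradiated *Trp53-/-* replicate 1 (adjusted p = 0.0546), although both samples were at 0 like their partners.

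*Perp* (chr10:18564877-18576879, plus strand) was higher in non-B than in B cells at every treatment of *Trp53+/+* mice. RPKM in *Trp53+/+* B cells was 0, 0.056, 0.069 and 0.055 in controls and 0.68, 0.55, 0.58 and 0.41 after IR. In *Trp53+/+* non-B cells it was 1.00, 0.98, 0.62 and 0.40 in controls and 1.62, 2.22, 1.56 and 2.00 after IR. Irradiated samples lay above controls in both. In *Trp53-/-* mice it was 0.057 and 0 in control and 0 and 0.17 in irradiated B cells, and 0.57 and 0.85 in control and 0.15 and 0.36 in irradiated non-B cells. The irradiated *Trp53-/-* non-B samples were thus lower than their controls, the opposite of *Trp53+/+*. In B cells no sample exceeded an RPKM of 1, the level set for testing, and in a fit without this filter the difference in *Trp53+/+* B cells was 0.95 (SE 0.106, limma, adjusted p = 0.000153), resting on 4.9 to 7.9 estimated reads per irradiated sample and at most 1 per control. In non-B cells the gene passed the filter only through irradiated samples. There the log2 fold change was 0.94 (SE 0.21, adjusted p = 0.0122) in *Trp53+/+* and -0.69 (SE 0.297, adjusted p = 0.285) in *Trp53-/-*, and the difference between genotypes was 1.63 (SE 0.363, adjusted p = 0.0233). The difference missed the threshold without *Trp53-/-* control replicate 2 (1.46, adjusted p = 0.108) and without irradiated *Trp53-/-* replicate 1 (1.43, adjusted p = 0.113). Markers of epithelial cells, where *Perp* is abundant, summed to 1.35 to 5.01 RPKM over 5 genes across all groups. This sum was 2.34 to 3.84 in control and 2.33 to 3.28 in irradiated *Trp53+/+* non-B cells.

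*Rps27l* (chr9:66793893-66797323, plus strand) rose in *Trp53+/+* B cells, while the increase in non-B cells did not pass the test. RPKM in *Trp53+/+* B cells was 36.5, 27.6, 39.2 and 26.7 in controls and 85.8, 89.3, 79.6 and 57.5 after IR. In *Trp53-/-* B cells it was 27.3 and 28.6 in controls and 46.6 and 37.7 after IR. Irradiated samples exceeded the controls of their genotype in both, by less in *Trp53-/-*. In non-B cells it was 35.2, 35.3, 22.2 and 22.7 in *Trp53+/+* controls, 35.9, 43.7, 37.7 and 48.4 after IR, 18.4 and 32.6 in *Trp53-/-* controls, and 35.3 and 32.7 after IR. The *Trp53+/+* controls fell into 2 levels, replicates 1 and 2 near the irradiated samples and replicates 3 and 4 lower. The log2 fold change in B cells was 1.25 (SE 0.152, limma, adjusted p = 2.46e-05) in *Trp53+/+* and 0.58 (SE 0.214, adjusted p = 0.0479) in *Trp53-/-*, the latter just under the threshold of 0.58 on size, and the difference between genotypes was 0.67 (SE 0.263, adjusted p = 0.0957). That difference passed without irradiated *Trp53+/+* replicate 4 (0.81, adjusted p = 0.0233), and the *Trp53-/-* response without irradiated *Trp53-/-* replicate 2 (0.73, adjusted p = 0.0459). In non-B cells the *Trp53+/+* change was 0.54 (SE 0.2, adjusted p = 0.0795), and it was 0.17 (adjusted p = 0.669) with replicates 1 and 2 alone and 0.92 (adjusted p = 0.048) with replicates 3 and 4 alone. The summed erythroid markers followed the same split of the controls, 261 and 249 in replicates 1 and 2 against 115 and 110 in replicates 3 and 4, and their part in the result was not tested. The related gene *Rps27*, with which *Rps27l* could share reads, had a log2 fold change of 0.33 in B and 0.08 in non-B cells of *Trp53+/+* mice and was not called, and values of *Rps27l* remain uncertain to the extent that reads were shared.

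**Figure D2:**
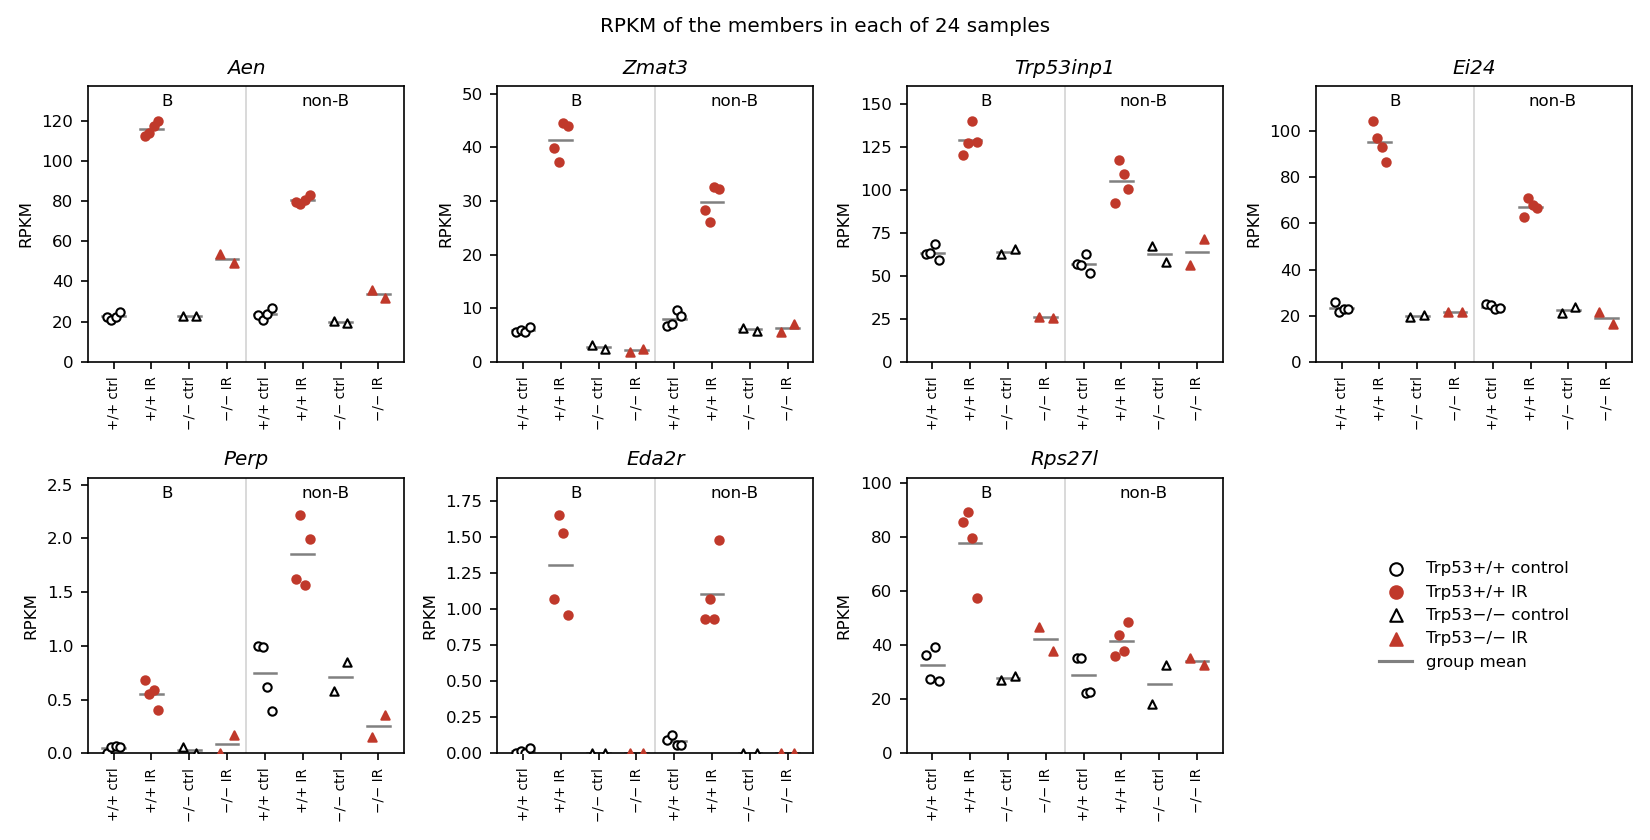
RPKM (y axis, linear from 0) of each of the 7 genes in every sample of the 8 groups (x axis), with circles for *Trp53+/+*, triangles for *Trp53-/-*, filled red symbols for IR and grey lines for group means. Irradiated *Trp53+/+* samples stand above their controls in every panel, irradiated *Trp53-/-* B cells stand below theirs for *Trp53inp1* (26.0 and 25.7 against 62.8 and 65.5), and *Eda2r* is at 0 in all *Trp53-/-* samples.

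Taking the 7 genes as a group, genes were called when the adjusted p (Benjamini-Hochberg over all genes tested) was under 0.05 and the absolute log2 difference above 0.58. In *Trp53+/+* B cells 6 of the 6 genes tested rose, against 12.5% of 13821 genes. Of 7 genes tested in *Trp53+/+* non-B cells 6 rose, against 5.74% of 14018 genes. The median log2 fold change of the tested members was 1.91 in B and 1.45 in non-B cells, that of all genes 0.01 and -0.03. Every irradiated *Trp53+/+* sample exceeded every control for all 7 genes in both cell types, which held for 22.9% of all tested genes in B and 10% in non-B cells. *Eda2r* in both cell types and *Perp* in non-B cells were tested only because of their irradiated level, so that these counts describe the genes and are no measure of a group effect. Without the libraries rich in receptor transcripts, which left 1 irradiated *Trp53+/+* sample per cell type whose spread was taken to be that of the other groups, 6 of 6 genes still rose in B and 5 of 7 in non-B cells, where *Perp* had 1.16 (adjusted p = 0.137). With the level of the receptor genes as a covariate in place of leaving libraries out, *Perp* likewise lost its call in non-B cells (1.1, adjusted p = 0.084).

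In *Trp53-/-* B cells, *Aen* rose and *Trp53inp1* fell, 1 gene each way, against 13.1% of genes called higher and 11.2% called lower. In *Trp53-/-* non-B cells *Aen* alone was called, against 0.193% of genes called higher. The median log2 fold change of the members was 0.07 in B and 0.02 in non-B cells, and that of all genes 0.02 and -0.02. The response was larger in *Trp53+/+* than in *Trp53-/-* cells for 5 of 6 genes in B cells (6.56% of all genes) and for 6 of 7 in non-B cells (3.72%), with *Rps27l* the exception in both. These counts include *Eda2r* in both cell types and *Perp* in non-B cells, tested only because of their irradiated *Trp53+/+* level, and describe the genes. In non-B cells *Rps27l* gave 0.08 (95% CI -0.68 to 0.83, adjusted p = 0.911), an interval that includes a difference above the threshold. As a ratio of the 2 fold changes, the *Trp53+/+* response of *Rps27l* was 1.59 times that of *Trp53-/-* in B and 1.05 times in non-B cells, and those of the other tested genes ranged from 2.28 to 8.16 times in B and from 1.80 to 3.49 times in non-B cells. Without the receptor-rich libraries, 5 genes kept a called difference in B cells. In non-B cells only *Ei24* did (1.82, adjusted p = 0.0148), while *Aen*, *Zmat3*, *Trp53inp1*, *Perp* and *Eda2r* gave 0.97 to 1.85 with adjusted p between 0.0512 and 0.0915. With the covariate, the non-B differences of *Trp53inp1* (0.88, adjusted p = 0.0664) and *Perp* (1.79, adjusted p = 0.0601) were no longer called.

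**Figure D3:**
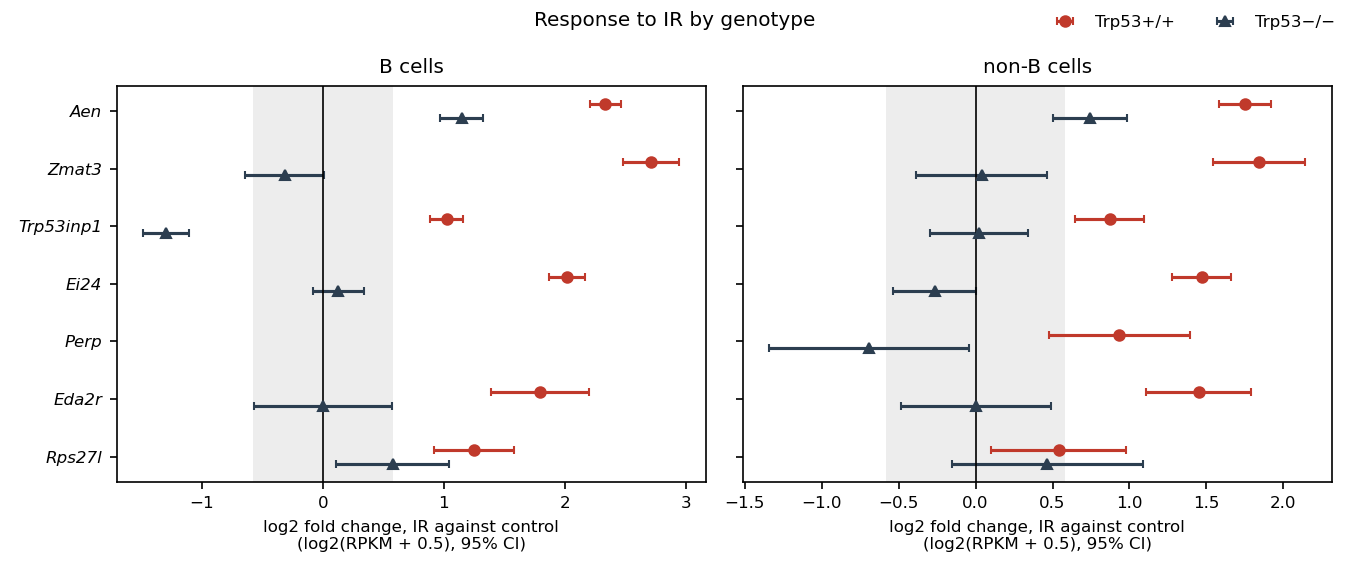
Log2 fold change after IR on the log2(RPKM + 0.5) scale (x axis) of the tested genes in *Trp53+/+* (red circles) and *Trp53-/-* (dark triangles) B cells, left, and non-B cells, right, with 95% confidence intervals and changes under 0.58 shaded. *Trp53+/+* and *Trp53-/-* intervals are apart for *Zmat3*, *Trp53inp1*, *Ei24* and *Aen* in both panels and overlap for *Rps27l*, and *Perp* was not tested in B cells.

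Without IR, *Zmat3* in B cells was the only one of the 7 genes called different between the genotypes. In control B cells it was lower in *Trp53-/-* (2.77 ± 0.491 RPKM, SD, n = 2) than in *Trp53+/+* (5.89 ± 0.468, n = 4), a log2 difference of -0.97 (SE 0.131, limma, adjusted p = 0.0138), whereas 0.0289% of genes were called lower. This call was lost without *Trp53-/-* control replicate 2 (-0.82, adjusted p = 0.396) and without *Trp53+/+* control replicate 2 (-0.97, adjusted p = 0.0642), the direction being kept. The other 5 tested genes had differences between -0.23 (*Ei24*) and 0.02 (*Trp53inp1* and *Aen*) and were not called. Of these 5, only *Ei24* had an unadjusted limma p under 0.05 (0.0192). In control non-B cells none of the 7 genes was called by limma (0.0285% of genes lower, 0.0143% higher). *Aen* had an unadjusted p of 0.0274 there (log2 difference -0.24), the only one of the 7 under 0.05.

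After IR, all 6 tested genes were lower in *Trp53-/-* than in *Trp53+/+* B cells, against 9.28% of genes. The log2 differences were -4.00 for *Zmat3*, -2.30 for *Trp53inp1*, -2.11 for *Ei24*, -1.83 for *Eda2r*, -1.17 for *Aen* and -0.87 for *Rps27l* (adjusted p = 0.0031 for the last). In irradiated non-B cells 6 of 7 were lower, against 13.3% of genes, from -2.17 for *Zmat3* to -0.71 for *Trp53inp1*. *Rps27l* gave -0.27 (95% CI -0.81 to 0.27, adjusted p = 0.416). The value of *Trp53inp1* dropped under the size threshold without irradiated *Trp53-/-* replicate 1 (-0.55, adjusted p = 0.0322). *Eda2r* in both cell types and *Perp* in non-B cells were tested only because of their irradiated *Trp53+/+* level. Their places in these counts of lower genes are therefore descriptions. In this same comparison of non-B cells 5 of 8 T cell markers and 3 of 8 B cell markers were called higher in *Trp53-/-*, as were 2 of 6 erythroid markers, against 7.25% of all genes, and 3 of 6 myeloid markers were called lower. The summed T cell markers were 311 to 405 in *Trp53+/+* and 528 to 673 in *Trp53-/-* irradiated non-B cells, and the part of such differences in cell makeup in the levels of the 7 genes was not tested.

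**Figure D4:**
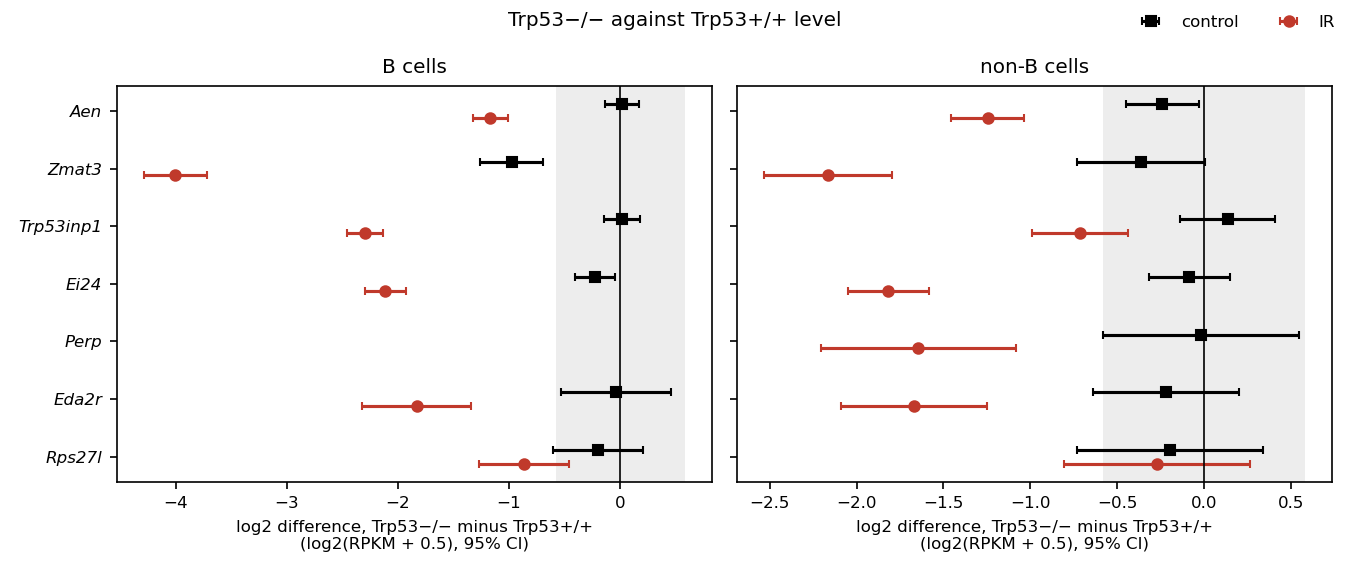
Log2 difference in level, *Trp53-/-* minus *Trp53+/+*, on the log2(RPKM + 0.5) scale (x axis), in controls (black squares) and after IR (red circles), with 95% confidence intervals and differences under 0.58 shaded. Controls lie near 0 except for *Zmat3* in B cells (-0.97), and irradiated samples lie below 0, furthest for *Zmat3* in B cells (-4.00).

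Between the cell types, the response of *Trp53+/+* mice was smaller in non-B cells for *Aen*, *Zmat3* and *Rps27l*. The differences in log2 fold change, non-B minus B, were -0.58 (SE 0.1, limma, adjusted p = 0.000482) for *Aen*, -0.87 (SE 0.16, adjusted p = 0.000836) for *Zmat3* and -0.71 (SE 0.255, adjusted p = 0.0478) for *Rps27l*, 3 of 7 genes called lower against 9.88% of 14598 genes. *Ei24* gave -0.55 (SE 0.099, adjusted p = 0.000734), significant but under the threshold of 0.58. It passed that threshold without *Trp53+/+* control B cell replicate 1 (-0.596, adjusted p = 0.000489) or irradiated B cell replicate 4 (-0.59, adjusted p = 0.00059). With replicates 1 and 2 alone it also passed (-0.66, adjusted p = 0.0169), so that *Ei24* and *Aen* differ little here. *Aen* lay close to the same threshold and came out just under it, at -0.58 to -0.53 with adjusted p of at most 0.0016, when 1 of 8 *Trp53+/+* samples was left out (irradiated B cell replicates 3 and 4, control B cell replicates 1 and 2, irradiated non-B replicates 1 and 2, control non-B replicates 3 and 4). *Trp53inp1* (-0.15, 95% CI -0.39 to 0.09), *Eda2r* (-0.35, 95% CI -0.84 to 0.15) and *Perp* (-0.01, 95% CI -0.56 to 0.53) did not pass, and these intervals leave room for sizeable differences in *Eda2r* and *Perp*. The *Rps27l* difference did not hold when 1 of 10 samples was left out in turn (-0.74 to -0.60, adjusted p between 0.0585 and 0.0962), and was -1.28 (adjusted p = 0.00501) with replicates 1 and 2 alone and -0.14 (adjusted p = 0.764) with replicates 3 and 4 alone. The 10 were *Trp53+/+* irradiated B cell replicates 1, 2 and 3, control B cell replicates 2 and 4, irradiated non-B replicates 1, 2 and 3, and control non-B replicates 1 and 2. Without the receptor-rich libraries *Zmat3* kept its call (-1.17, adjusted p = 0.0285), while *Aen* had -0.64 (adjusted p = 0.0529) and *Rps27l* -0.67 (adjusted p = 0.327). With the covariate *Rps27l* also missed the threshold (-0.68, adjusted p = 0.065). All 3 calls were lost under quantile normalization, which gave -0.27 (adjusted p = 0.192) for *Aen*, -0.47 (adjusted p = 0.0935) for *Zmat3* and -0.53 (adjusted p = 0.121) for *Rps27l*, while *Eda2r* was then called lower (-0.71, adjusted p = 0.0256).

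Before IR, *Perp* was the only one of the 7 genes called different between the cell types, higher in non-B cells by 1.17 (SE 0.182, adjusted p = 7.52e-05), against 17.2% of genes higher there. It entered this test only through its irradiated non-B samples, as no control exceeded an RPKM of 0.999, and in a fit of the control groups alone it was therefore not tested. Without the filter the difference was the same (adjusted p = 7.97e-05). *Zmat3* was higher by 0.40 (adjusted p = 0.00946), which is under the threshold on size. The other 5 genes had differences between -0.19 (*Rps27l*) and 0.18 (*Eda2r*) with adjusted p of 0.15 or more. The order of levels among the genes, in RPKM and hence per length, was *Trp53inp1*, *Rps27l*, *Ei24*, *Aen* and *Zmat3* in *Trp53+/+* controls of both cell types, *Ei24* and *Aen* not differing beyond their ranges in either, nor *Rps27l* and *Ei24* in non-B cells. After IR *Aen* and *Ei24* stood above *Rps27l*, with overlapping ranges of *Ei24* and *Rps27l* in B cells. *Perp* and *Eda2r* were last, *Perp* above *Eda2r* in non-B cells and below it in irradiated B cells.

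**Figure D5:**
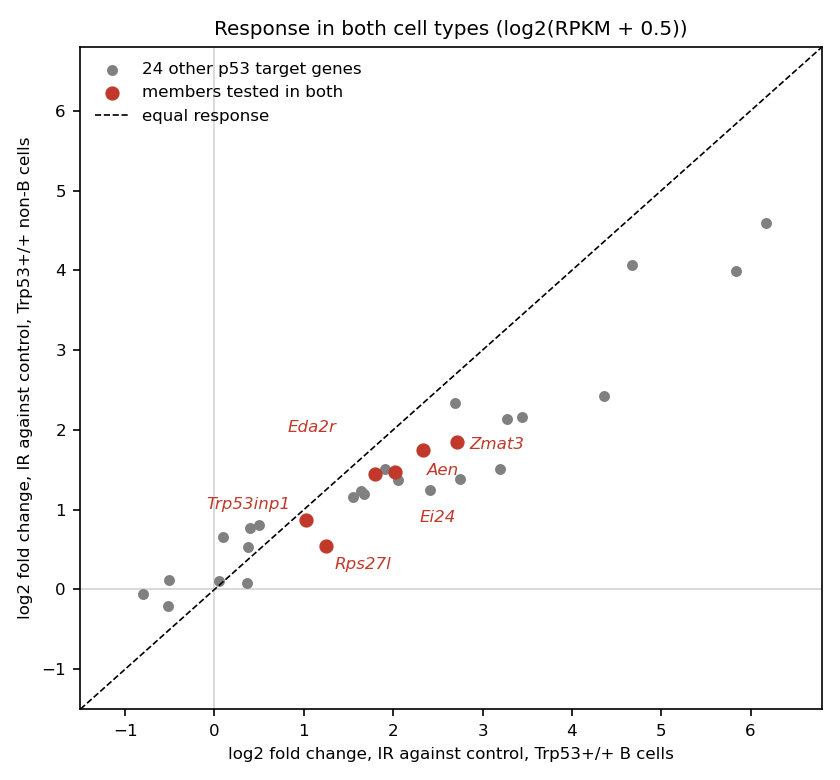
Log2 fold change after IR on the log2(RPKM + 0.5) scale in *Trp53+/+* B cells (x axis) and non-B cells (y axis) for the 6 genes tested in both (red) and 24 other p53 target genes (grey), each point being 1 gene and the dashed line equal change. All 6 red points lie under the line, and the largest changes are those of grey points (6.17 and 5.83 on the x axis for *Phlda3* and *Cdkn1a*).

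Within each gene, the 8 groups were ordered alike at the top. Irradiated *Trp53+/+* B cells had the highest mean for all genes but *Perp*, and irradiated *Trp53+/+* non-B cells the next highest for *Aen*, *Zmat3*, *Trp53inp1*, *Ei24* and *Eda2r*. For *Eda2r* the ranges of both overlapped (means of 1.30 and 1.105 RPKM). *Rps27l* had irradiated *Trp53-/-* B cells next with 42.2 RPKM, overlapping irradiated *Trp53+/+* non-B cells with 41.4. The lowest group was irradiated *Trp53-/-* B cells for *Zmat3* (2.12 RPKM) and *Trp53inp1* (25.8 RPKM), and for both genes all other groups lay above without overlap.

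A list of 24 other genes known as p53 targets moved mostly in the same direction. In *Trp53+/+* B cells 15 rose and 1 fell, with a median log2 fold change of 1.79. Of all genes, 12.5% rose and 12.2% fell there. In *Trp53+/+* non-B cells 16 rose and none fell, with a median of 1.25, where 5.74% of all genes rose and 4.11% fell. The largest changes were those of *Phlda3* and *Cdkn1a*, the cyclin-dependent kinase inhibitor p21, in B cells (6.17 and 5.83), and of *Phlda3* and *Plk2* in non-B cells (4.59 and 4.06). *Xpc* and *Dram1* had the smallest in B cells (0.05 and 0.09) and *Rrm2b* and 9630033F20Rik, the gene of Tigar, in non-B cells (-0.06 and 0.08), none of them called. The gene that fell in B cells was *Rrm2b*, a subunit of ribonucleotide reductase (-0.80, adjusted p = 4.38e-06). In *Trp53-/-* B cells 4 of 24 rose and 7 fell, where 13.1% of all genes rose and 11.2% fell. In *Trp53-/-* non-B cells none was called, where only 0.193% of all genes rose and 0.25% fell. The contrast of the cell types in these calls was thus shared by all genes. The response was larger in *Trp53+/+* for 17 of 24 in B (6.56% of all genes) and 15 of 24 in non-B cells (3.72%). It was smaller for 1 in B cells (5.43% of all genes), the kinase gene *Plk3* (-0.78, limma, adjusted p = 0.00474). The *Trp53+/+* response was called smaller in non-B than in B cells for 9 of 24 (9.88% of all genes) and larger for 2 (8.9%).

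Relatives and partners of the 7 genes mostly did not pass the test in *Trp53+/+* cells. Of all genes, 24.7% were called in either direction in *Trp53+/+* B and 9.85% in non-B cells. In *Trp53-/-* these shares were 24.3% and 0.442%. Of 5 exonucleases related to *Aen* none was called in either cell type, nor was any of 3 detected relatives of *Zmat3*, 3 genes that act with or beside *Ei24* in autophagy and survival, or the detected genes of the *Eda2r* pathway (5 in B and 4 in non-B cells). Among 8 partners of *Trp53inp1*, *Map1lc3a* (-1.14, adjusted p = 0.000149) and *Gabarapl2* (-0.62, adjusted p = 3.52e-05), both ubiquitin-like proteins of the autophagosome membrane, fell in B cells, and none was called in non-B cells. Of the relatives of *Perp*, the desmosomal genes *Jup* (-1.55, adjusted p = 0.000127) and *Ppl* (-0.92, adjusted p = 0.00168) fell in B cells, and *Pmp22*, a member of the same protein family as *Perp*, rose in non-B cells (1.19, adjusted p = 0.00269). In *Trp53-/-* B cells *Jup* (-1.85), *Ppl* (-0.96) and *Map1lc3a* (-1.20) fell as well, together with *Trp53inp2* (-0.74) and *Map3k14* (-0.61), and *Rexo2* (0.69) and *Tnfrsf19* (1.07) rose. In *Trp53-/-* non-B cells *Jup* fell (-1.71, adjusted p = 0.0288).

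Over the 24 samples, the genes whose log2(RPKM + 0.5) most resembled that of each member among 13829 expressed genes were found by Pearson's correlation. For most members this describes mainly the contrast of irradiated *Trp53+/+* samples with all others and the shared libraries. *Perp* and *Rps27l* followed that contrast less. Mean *Perp* in irradiated *Trp53+/+* B cells (0.555 RPKM) was under that of non-B controls of both genotypes (0.714 in *Trp53-/-*, 0.749 in *Trp53+/+*). The most similar genes were *Pvt1* (r = 0.987), *Bax* (0.978) and *Pomt2* (0.971) for *Aen*, and *Aldh4a1* (0.978), *Sesn2* (0.971) and *Bbc3* (0.97) for *Zmat3*. For *Trp53inp1* they were *Rbl2* (0.963), *Btg2* (0.936) and *Acap2* (0.935), and for *Ei24* *Prrg4* (0.989), 9230114K14Rik (0.987) and *Slc19a2* (0.986). *Perp* was most like *Diap2* (0.969), *Etv6* (0.937) and *Kif13a* (0.937), *Eda2r* like *Grhl3* (0.985), 1700007K13Rik (0.983) and 9230114K14Rik (0.98), and *Rps27l* like *Eed* (0.933), *Srp72* (0.919) and *Apoo* (0.908). Among the 7 genes themselves the pairs ranged from 0.211 (*Perp* and *Rps27l*) to 0.975 (*Ei24* and *Eda2r*). *Aen* and *Trp53inp1*, which moved in opposite directions in *Trp53-/-* B cells, had 0.6.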

How the data were processed

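RNA-Seq of the 24 samples described above was analysed from the gene-level values that the authors deposited as RPKM with 3 decimals. Per the study's methods, bases under a quality of 20 were masked, reads were aligned to mm9 with TopHat (TopHat2 2.0.8 in the submitters' processing notes), 1 of each set of duplicated reads was kept, and featureCounts 1.4.5 assigned reads to UCSC genes, with reads on exons as library size. Removing duplicates limits the level that abundant genes can reach, and the largest RPKM per sample was 157 to 307. Of the members, *Trp53inp1* and *Aen* came nearest to such levels, with means of 129.1 and 116.0 in irradiated *Trp53+/+* B cells. Whether their changes and ranks were compressed in this way was not tested. As no read counts were given, the count test of the study was not used.

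Differences were tested with limma 3.58.1 in R 4.3.3 (moderated, with a mean trend) on log2(RPKM + 0.5), which understates changes of low genes. Each cell type was fitted over its 12 samples on genes above an RPKM of 1 in at least 1 *Trp53+/+* sample, and the cell types were compared over the 16 *Trp53+/+* samples. Named genes were the 7 members, *Trp53*, the 3 genes most like each member, called relatives and partners, and the 2 largest and 2 smallest changes of the p53 target list. The exceptions are *Rrm2b* and *Plk3* in B cells, named after their values were seen because each was the one target called in its direction. Members and lists were chosen with earlier results of these data known. On simulated data with log2 changes of 1.5, all changed genes were recovered, 200 of 200 for IR in *Trp53+/+* B cells (0 false calls), 100 of 100 for the genotype difference in B cells (5 false calls) and 200 of 200 for the cell type difference (10 false calls). Depth was estimated from gene lengths found for 91.1% of genes, between 57.2% and 70.5% of the low values used lying within 0.1 of a whole read, and no counting intervals are given. Replicate numbers were checked as pairs through the correlation of deviations from group means, which was 0.166 to 0.339 for control and irradiated non-B *Trp53+/+* samples of the same number, but only 0.025 to 0.095 in B cells. For B and non-B *Trp53+/+* samples of the same number this correlation was -0.051 to 0.361 in controls and -0.071 to 0.301 after IR. Alternatives were other constants, thresholds, filters, scalings, receptor gene level as a covariate, sample subsets and left-out samples. Other tools were Python 3.11.15, numpy 2.4.6, pandas 2.3.3 and matplotlib 3.10.9.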

Additional observations from a re-analysis of the deposited data

Results flagged for a closer look

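Differences of the response to IR between groups were tested directly in the limma fits and passed for 14 combinations of gene and comparison, given here as differences of log2 fold changes. Between genotypes, *Trp53+/+* minus *Trp53-/-*, they were 3.03 (*Zmat3*), 2.32 (*Trp53inp1*), 1.89 (*Ei24*), 1.80 (*Eda2r*, 1.795) and 1.19 (*Aen*) in B cells. In non-B cells they were 1.80 (*Zmat3*, 1.803), 1.73 (*Ei24*), 1.63 (*Perp*), 1.45 (*Eda2r*), 1.01 (*Aen*) and 0.85 (*Trp53inp1*). Between cell types, non-B minus B in *Trp53+/+*, they were -0.87 (*Zmat3*), -0.71 (*Rps27l*) and -0.58 (*Aen*). *Eda2r* was at 0 in every *Trp53-/-* sample, so that its values depend on the constant added to RPKM. *Eda2r* in both cell types and *Perp* in non-B cells entered the tests only through irradiated *Trp53+/+* samples, the groups in which they are high, so that these 3 differences are descriptions. Among 28 sets of 4 *Trp53+/+* samples examined with Dixon's test at the 95% level, 0 held a sample far from the other 3, although chance alone would give about 1 in 20.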

How the results depend on the processing

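Over all alternatives, 1960 of 2085 recomputed member values kept their direction and their side of the threshold. Many of them could hardly change, so that this total is no measure of robustness. Some left-out samples lay outside the comparison, the threshold alternatives reused the same estimate, and uncalled values that stayed uncalled count as kept. The number of members called in *Trp53+/+* B cells after IR was 5 to 6 in every alternative. Genotype differences of the response in non-B cells were called for 6 members, but for 3 at an adjusted p under 0.01 or with *Trp53+/+* replicates 1 and 2 alone and for 1 without the receptor-rich libraries, and 3 to 6 with samples left out. The 3 calls of the cell type difference became 0 at a log2 threshold of 1 and 1, that of *Zmat3*, with median-ratio scaling or no receptor-rich libraries (1 to 3 with samples left out); quantile normalization ended all 3 and gave 1 other call, *Eda2r*. The call of *Zmat3* in control B cells became 0 calls at a log2 threshold of 1, an adjusted p under 0.01, with replicates 1 and 2 or 3 and 4 alone and with the replicate block (0 to 1 with samples left out). That of *Aen* in *Trp53-/-* non-B cells became 0 at both thresholds, with quantile normalization and with *Trp53+/+* replicates 1 and 2 alone (0 to 1 with samples left out). The *Perp* difference at baseline became 0 calls with only the groups of the contrast, since its values then stayed under the filter.

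The replicate block gave -0.91 (limma, adjusted p = 0.137) for *Zmat3* in control B cells and a call of the genotype difference of *Rps27l* in B cells (0.67, adjusted p = 0.0333). It changed no call in non-B cells or between the cell types. In B cells the samples share only a number: 1 of 4 controls correlated best with its own number.

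The sign turned, among values that were not called, for *Perp* in the cell type difference (0.14 with a constant of 1, 0.012 with median-ratio scaling, 0.36 with replicates 3 and 4, 0.16 without receptor-rich libraries, -0.162 to 0.086 with samples left out), *Trp53inp1* with quantile normalization (-0.013 in *Trp53-/-* non-B cells, 0.054 between cell types), and *Rps27l* (-0.30 for the genotype difference in non-B cells and 0.15 between control cell types with replicates 1 and 2, 0.12 between non-B control genotypes with replicates 3 and 4). With replicates 3 and 4, *Aen* gave -0.044 in control B cells and *Perp* 0.27 in control non-B cells. With samples left out, ranges that crossed or reached 0 were -0.017 to 0.061 (*Aen*) and -0.013 to 0.058 (*Trp53inp1*) in control B cells, -0.17 to 0 (*Ei24*), -0.18 to 0.15 (*Perp*) and -0.60 to 0.21 (*Rps27l*) in control non-B cells, -0.14 to 0.21 (*Zmat3*) and -0.15 to 0.19 (*Trp53inp1*) for IR in *Trp53-/-* non-B cells, and -0.33 to 0.48 for the genotype difference of *Rps27l* in non-B cells. Depth limits *Perp* and *Eda2r*, for which a few reads make up the control values.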
